A study of Mus musculus with 6 samples.

Results

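The genes that encode the enzymes hydroxylating collagen inside the cell and crosslinking it outside the cell were compared between CD34hi and CD34lo fibroblasts of the mouse mammary gland. They were chosen by name and number 10 of the 27179 genes in the count table. *P4ha1* and *P4ha2* encode catalytic subunits of prolyl 4-hydroxylase, *Plod1*, *Plod2* and *Plod3* encode the lysyl hydroxylases, and *Lox* and *Loxl1* to *Loxl4* encode the lysyl oxidases. All 10 were in the table and passed the filter on low counts.

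Prolyl 4-hydroxylases convert proline residues of procollagen to 4-hydroxyproline, on which the stability of the triple helix depends. Lysyl hydroxylases act on lysine residues in the same chains, and the hydroxylysines can then carry sugars and enter the stronger kinds of crosslink. After secretion, the copper-dependent lysyl oxidases turn lysine and hydroxylysine side chains of collagen and elastin into aldehydes that join neighbouring molecules, a step that stiffens the stroma around the mammary ducts.

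Fibroblasts (Lin–CD24–Pdgfrα+ cells) were sorted by FACS from pubertal mammary glands of FVB/NJ mice (FVB/N in the sample labels) at 6 weeks of age and separated by the amount of CD34 on their surface. Each of 3 pools of 2 mice gave 1 CD34hi and 1 CD34lo library, hence 3 libraries per population and 6 in all, and the spread between single mice of a pool was not measured. The comparison asks which genes separate the CD34hi from the CD34lo population, and polyadenylated RNA was counted per gene. Levels are given as CPM (counts scaled to 1e+06 per library, with library sizes corrected by TMM), and log2 fold changes as CD34hi vs CD34lo, so that a negative value means a higher level in CD34lo.

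The total per library ranged from 28764779 to 52402410 counts, at which 3 counts correspond to 0.0572 to 0.104 CPM, a floor that covers counting error only. *Cd34*, on which the cells were sorted, had a log2 fold change of 2.02 and did not overlap between the populations. Of the fibroblast markers *Dcn*, *Lum*, *Pdgfra*, *Col1a2* and *Igfbp5*, the summed level was 28386 to 31856 CPM in CD34hi and 31503 to 36429 CPM in CD34lo libraries, and none was at 0. These sums cover differences in both directions. *Igfbp5* was higher in CD34hi (log2 fold change 3.45, edgeR adjusted p = 2.27e-05). *Lum* (−1.28, edgeR adjusted p = 0.000454), *Pdgfra* (−0.74, 0.0148) and *Col1a2* (−0.69, 0.0201) were higher in CD34lo. *Dcn* had −0.34 (edgeR adjusted p = 0.176). The summed levels of markers of other cell types were far lower and differed between the populations. In CD34lo, they were higher for 3 endothelial genes (28.7 to 49.8 CPM against 7.83 to 24.0 CPM in CD34hi), 2 pericyte genes (7.36 to 11.5 against 1.59 to 2.46 CPM), 5 macrophage genes (27.3 to 48.6 against 2.57 to 3.20 CPM), 6 epithelial genes (68.8 to 69.7 against 34.7 to 41.1 CPM) and 4 muscle genes (3.50 to 3.88 against 1.27 to 1.57 CPM). In CD34hi, they were higher for 4 Schwann cell genes (42.1 to 52.1 against 20.8 to 26.8 CPM in CD34lo) and 2 keratinocyte genes (14.3 to 19.9 against 3.60 to 7.12 CPM). Most of the epithelial difference lay in *Acta2* (28.1 to 38.2 CPM in CD34lo and 3.23 to 3.24 CPM in CD34hi), without which the sums of the other 5 genes overlapped (31.5 to 40.7 CPM in CD34lo and 31.5 to 37.8 CPM in CD34hi). Of these 5 genes, *Itga6* was also higher in CD34lo (4.89 to 7.14 against 1.74 to 3.53 CPM, log2 fold change −1.26, edgeR adjusted p = 0.00817), and the others were not called. The macrophage sum was mostly *Fcgr2b*, with *C1qa* at up to 1.61 CPM and *Cd163* at up to 0.240 CPM in any library, and the Schwann cell sum in CD34hi was mostly *Mbp* (36.8 to 47.0 CPM), with *Sox10* at up to 0.804 CPM in any library. None of the markers was at 0 in every library, and the part of these cells in the values of the enzyme genes was not tested. In bulk samples, fewer cells of a type and less RNA per cell cannot be told apart.

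The called genes of the enzyme families lay in opposite directions. *Loxl1*, *Loxl2*, *Loxl3* and *Loxl4* were higher in CD34hi fibroblasts, whereas *Plod1* and *P4ha1* were higher in CD34lo fibroblasts, with fitted differences from 1.28-fold (*Loxl3*) to 2.65-fold (*Loxl4*). *Lox*, *Plod2*, *Plod3* and *P4ha2* did not pass the threshold. Thus 6 of the 10 genes were called at an adjusted p-value under 0.05 in the quasi-likelihood test of edgeR (Benjamini-Hochberg method over all tested genes), against 35.6% of the 15219 genes tested. The 4 called higher in CD34hi compare with 16.9% of all tested genes, and the 2 called higher in CD34lo with 18.7%. That fit did not pair the libraries by mouse pool. With the pool as a block, *Lox* was also called, on the CD34lo side (−0.63, edgeR adjusted p = 0.0102). In the block fit, 7 of the 10 genes and 6161 of all 15219 tested genes were called. The libraries of the populations did not overlap for 8 of the 10 genes, 4 in each direction, where 50.1% of all tested genes did not overlap. The median log2 fold change was −0.07 over the 10 genes and −0.0064 over all tested genes. The number of calls fell to 3 when mouse pool 1, mouse pool 2 or the CD34hi library of pool 2 was left out, and *Loxl1*, *Loxl4* and *Plod1* were called in each of the 18 alternatives.

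**Figure D1:**
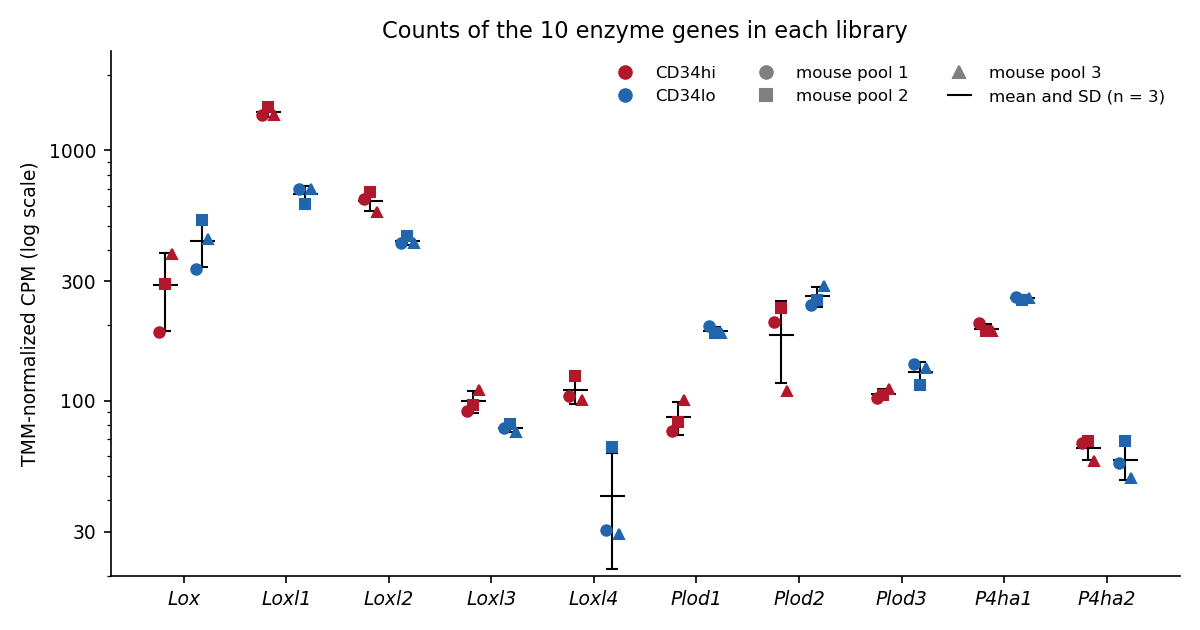
TMM-normalized CPM (log scale) of the 10 enzyme genes in each of the 6 libraries, with color for the population, symbol shape for the mouse pool, and bars for mean and SD (n = 3). *Loxl1* lies highest at 1386 to 1488 CPM in CD34hi, and the CD34hi library of pool 3 stands below the other 5 libraries for *Plod2* at 109.5 CPM.

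**Figure D2:**
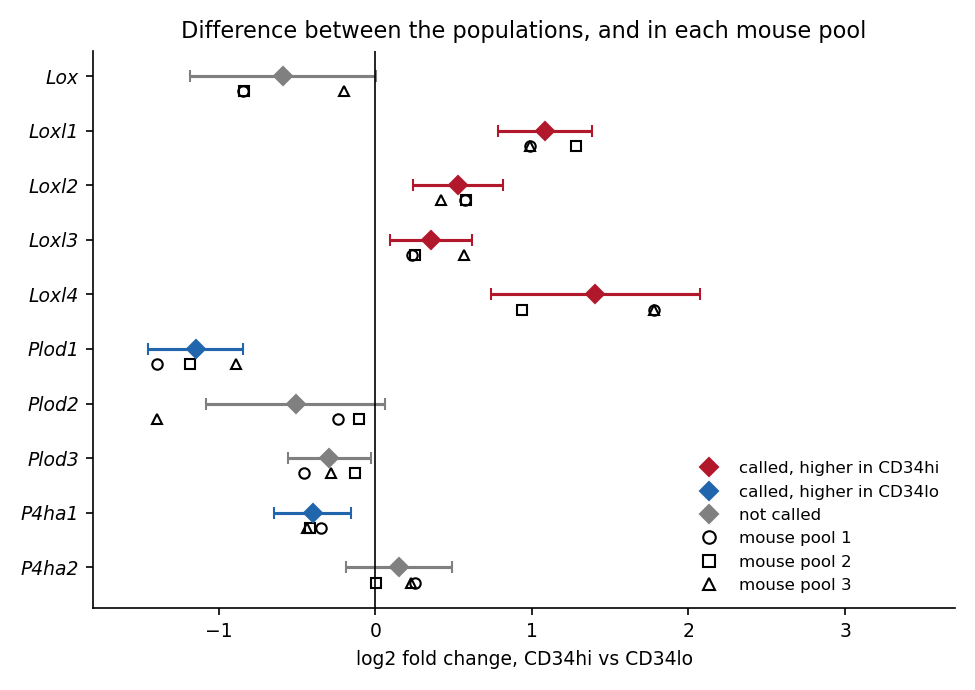
Log2 fold change, CD34hi vs CD34lo, of each enzyme gene from edgeR with its 95% confidence interval (diamond and bar) and the log2 ratio within each mouse pool (open symbols). Intervals of the 4 *Loxl* genes lie above 0, those of *Plod1*, *P4ha1* and the uncalled *Plod3* lie below 0, and the pools spread most for *Plod2*, from −1.39 to −0.11.

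*P4ha1* (gene 18451, chr10:59323296-59373304, plus strand, GRCm38) encodes the widely expressed catalytic subunit of prolyl 4-hydroxylase. Its level was 203.5, 189.5 and 189.3 CPM in the CD34hi libraries of pools 1, 2 and 3, and 259.1, 252.9 and 256.1 CPM in the CD34lo libraries. All CD34lo libraries lay above all CD34hi libraries, and the libraries of each population lay close together. The means were 194 ± 8.17 CPM (SD, n = 3) in CD34hi and 256 ± 3.06 CPM (SD, n = 3) in CD34lo, a log2 fold change of −0.40 (SE 0.11, edgeR adjusted p = 0.0188), and the difference had the same direction in 3 of 3 pools. The call was lost in fits without any one pool (adjusted p between 0.0522 and 0.155 in edgeR), without the CD34hi library of pool 1 (−0.40, 0.0644) or pool 2 (−0.37, 0.109), and without the CD34lo library of pool 1 (−0.37, 0.0573), while over all 18 alternatives the adjusted p ranged from 0.00154 to 0.155.

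*P4ha2* (gene 18452, chr11:54100924-54131667, plus strand), which encodes the alternative catalytic subunit of the same enzyme, was not called. Its level was 67.5, 69.2 and 57.2 CPM in CD34hi and 56.6, 69.0 and 48.9 CPM in CD34lo libraries of pools 1, 2 and 3. The populations overlapped, and within pool 2 the libraries were nearly equal. The log2 fold change was 0.15 with a 95% confidence interval from −0.19 to 0.49 (edgeR adjusted p = 0.463), and none of the 18 alternatives called it. Scaled to gene length (RPKM, CPM divided by the length in kilobases), *P4ha1* made up 63.6%, 61.3% and 65.7% of the summed level of the pair in the CD34hi libraries of pools 1, 2 and 3 and 72.6%, 68.0% and 75.2% in the CD34lo libraries. The share of *P4ha1* was higher in every CD34lo than in every CD34hi library (exact two-sided permutation p = 0.1, the smallest that 3 libraries against 3 allow). The RPKM ratio of *P4ha1* to *P4ha2* was 1.75 ± 0.166 in CD34hi and 2.61 ± 0.458 in CD34lo.

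Several genes of collagen modification are known targets of the hypoxia-inducible factors, whose binding site holds the core ACGTG or, in its other form, GCGTG. Read from the opposite strand, the former is CACGT and the latter is written as CACGC, and the former overlaps the E-box motif. The 250 bases upstream of the annotated start were at hand for 5 of the 10 genes (RefSeq, GRCm38.p6), namely *P4ha1*, *P4ha2*, *Plod1*, *Plod3* and *Loxl4*. They were searched for these letters on both strands, with overlapping matches counted as 1 place. Those of *P4ha1* (chr10:59323046-59323295, plus strand) and *P4ha2* (chr11:54100674-54100923, plus strand) are shown because both genes encode the same kind of subunit. They are given 5′ to 3′ in the direction of transcription, with the core letters in capitals.
P4ha1: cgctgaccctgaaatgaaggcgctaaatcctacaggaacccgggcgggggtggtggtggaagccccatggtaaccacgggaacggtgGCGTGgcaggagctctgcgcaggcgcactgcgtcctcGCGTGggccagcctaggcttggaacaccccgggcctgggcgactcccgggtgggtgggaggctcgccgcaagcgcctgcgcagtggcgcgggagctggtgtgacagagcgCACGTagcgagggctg
P4ha2: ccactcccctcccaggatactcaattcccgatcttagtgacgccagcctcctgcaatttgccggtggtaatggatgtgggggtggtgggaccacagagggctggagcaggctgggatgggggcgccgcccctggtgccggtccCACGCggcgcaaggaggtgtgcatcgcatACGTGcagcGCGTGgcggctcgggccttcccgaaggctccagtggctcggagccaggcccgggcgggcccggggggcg
Each of these windows held 3 places, whose first bases lay 163, 126 and 16 bases before the start in *P4ha1* and 107, 78 and 69 bases before it in *P4ha2*. Of all 32851 windows of this length, 38.6% held at least 1 place, and of the 13478 windows with at least 55% G and C, 58.3% did. The share of windows with 3 places was not computed. The windows of *P4ha1* and *P4ha2* held 69.6% and 70% G and C, well above that limit. The matches describe letters and not bound sites, and their link to the expression values was not tested.

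*Plod1* (gene 18822, chr4:147909753-147936776, minus strand) encodes lysyl hydroxylase 1, which acts mainly on lysines within the collagen helix. It had 75.5, 82.1 and 100.3 CPM in the CD34hi libraries of pools 1, 2 and 3 and 198.0, 186.6 and 186.0 CPM in the CD34lo libraries. The populations were well apart, and the highest CD34hi library, that of pool 3, remained below the lowest CD34lo library. The means of 86.0 ± 12.9 CPM and 190 ± 6.74 CPM (SD, n = 3 each) gave a log2 fold change of −1.15 (SE 0.13, edgeR adjusted p = 0.000240), with log2 ratios of −1.39, −1.19 and −0.89 in the pools. This was the largest difference among the 5 prolyl 4-hydroxylase and lysyl hydroxylase genes of the set.

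*Plod2* (gene 26432, chr9:92542223-92608428, plus strand) encodes lysyl hydroxylase 2, which acts on the telopeptide lysines from which hydroxylysine aldehyde crosslinks are made. It had 205.4, 235.6 and 109.5 CPM in CD34hi and 241.8, 253.6 and 287.8 CPM in CD34lo libraries of pools 1, 2 and 3. All CD34lo libraries lay above the CD34hi libraries, but the gap was small in pools 1 and 2 and wide in pool 3, where the CD34hi library was low. The log2 fold change was −0.51 with a 95% confidence interval from −1.08 to 0.06 (edgeR adjusted p = 0.151), and without the CD34hi library of pool 3 it was −0.24 (adjusted p = 0.222). Of the 18 alternatives, whose adjusted p ranged from 0.0447 to 0.356, only limma-voom with the mouse pool as a block called *Plod2* (−0.59, adjusted p = 0.0447).

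*Plod3* (gene 26433, chr5:136987019-136996646, plus strand) encodes lysyl hydroxylase 3, which also transfers sugars to hydroxylysine. It had 102.4, 105.6 and 111.2 CPM in CD34hi and 140.2, 115.7 and 135.3 CPM in CD34lo libraries of pools 1, 2 and 3, so that the populations did not overlap but came close in pool 2. The log2 fold change of −0.29 (95% confidence interval −0.56 to −0.03) missed the threshold (edgeR adjusted p = 0.0806). Without the CD34lo library of pool 2 it was −0.38 and called (edgeR adjusted p = 0.0399), and the adjusted p ranged from 0.0399 to 0.475 over the alternatives. *Plod3* overlaps *Znhit1* on the opposite strand, which had 6.43% as many counts over the 6 libraries. Without a stated strand setting, reads within the overlap cannot be told apart, and their number was not determined.

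The 250 bases upstream of *Plod1* (chr4:147936777-147937026, minus strand, RefSeq, GRCm38.p6) are shown as those of the lysyl hydroxylase gene with the largest difference, written 5′ to 3′ in the direction of transcription with the same core in capitals.
Plod1: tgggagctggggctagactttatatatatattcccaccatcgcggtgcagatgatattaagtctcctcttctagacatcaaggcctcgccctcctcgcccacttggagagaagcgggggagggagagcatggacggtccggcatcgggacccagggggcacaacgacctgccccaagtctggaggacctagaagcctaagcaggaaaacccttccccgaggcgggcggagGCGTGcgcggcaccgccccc
This window held 1 place, 20 bases before the start, and that of *Plod3* held 4.

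By summed RPKM, the 3 lysyl hydroxylase genes reached 108 ± 13.4 in CD34hi and 169 ± 7.50 in CD34lo (SD, n = 3 each), without overlap (exact two-sided permutation p = 0.1). Within this sum, *Plod3* took a larger share in CD34hi (30.4% ± 4.96) than in CD34lo (23.6% ± 1.71) in every library, again at the smallest exact permutation p of 0.1, but the difference of 6.79 percentage points was 3.97 without the CD34hi library of pool 3 and 3.91 without pool 3. The share of *Plod1* was 21.1%, 20.9% and 32.7% in CD34hi and 36.1%, 35.6% and 32.5% in CD34lo libraries of pools 1, 2 and 3, and that of *Plod2* was 50.4%, 52.5% and 31.3% against 38.6%, 42.4% and 44.0%. Both overlapped between the populations, and the CD34hi library of pool 3 stood apart from the other CD34hi libraries in all 3 shares, with 36.0% for *Plod3* against 28.5% and 26.6%. The mean difference in the *Plod2* share, 3.03 percentage points higher in CD34hi, turned to −0.85 points without the CD34hi library of pool 2, and to −1.35 and −0.48 points without pools 1 and 2.

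*Lox* (gene 16948, chr18:52517238-52529708, minus strand) encodes the founding lysyl oxidase of collagen and elastin. It had 188.1, 293.5 and 385.7 CPM in CD34hi and 337.2, 525.1 and 442.7 CPM in CD34lo libraries of pools 1, 2 and 3. The CD34hi library of pool 3 lay above the CD34lo library of pool 1, so the populations overlapped, but within each pool CD34lo was the higher one. The log2 fold change was −0.59 with a 95% confidence interval from −1.19 to 0.01 (edgeR adjusted p = 0.114), and it was not called. With the mouse pool as a block, it was −0.63 and called (edgeR adjusted p = 0.0102), and without the CD34hi library of pool 3 it was −0.85 and called (edgeR adjusted p = 0.0320). The adjusted p ranged from 0.00521 to 0.405 over the alternatives.

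*Loxl1* (gene 16949, chr9:58287723-58313212, minus strand) encodes a lysyl oxidase needed for elastic fibre upkeep and was the most abundant of the 10 mRNAs. It had 1386, 1488 and 1389 CPM in CD34hi and 699.6, 612.9 and 698.8 CPM in CD34lo libraries of pools 1, 2 and 3. Every CD34hi library was far above every CD34lo library. The means of 1421 ± 58.2 CPM and 670 ± 49.8 CPM (SD, n = 3 each) gave a log2 fold change of 1.08 (SE 0.13, edgeR adjusted p = 0.000310), with 0.99, 1.28 and 0.99 in the pools.

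*Loxl2* (gene 94352, chr14:69609476-69695834, plus strand), whose product crosslinks collagen IV of basement membranes as well as fibrillar collagen, had 636.5, 680.0 and 568.8 CPM in CD34hi and 428.0, 454.3 and 424.7 CPM in CD34lo libraries of pools 1, 2 and 3. The populations did not overlap. The log2 fold change was 0.53 (SE 0.13, edgeR adjusted p = 0.0110), with the same direction in 3 of 3 pools. The call was lost without pool 1 (0.53, adjusted p = 0.0981 in edgeR), pool 2 (0.50, 0.0905) or the CD34hi library of pool 2 (0.48, 0.0635), and the adjusted p ranged from 0.000156 to 0.0981 over the alternatives.

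*Loxl3* (gene 16950, chr6:83034224-83052564, plus strand), a lysyl oxidase gene known for its role in palate and spine formation, showed the smallest called difference. It had 91.2, 96.1 and 110.8 CPM in CD34hi and 77.5, 80.7 and 74.7 CPM in CD34lo libraries of pools 1, 2 and 3, without overlap. The log2 fold change of 0.36 (SE 0.11, edgeR adjusted p = 0.0385) lost its call in 8 of the 9 fits with 1 pool or library omitted. It was 0.44, 0.41 and 0.25 without pools 1, 2 and 3, 0.39 and 0.28 without the CD34hi libraries of pools 2 and 3, and 0.38, 0.38 and 0.33 without the CD34lo libraries of pools 1, 2 and 3, and the adjusted p ranged from 0.0285 to 0.143 over the alternatives. *Loxl3* overlaps *Htra2* on the opposite strand, which had 26.1% as many counts over its whole length. How many *Loxl3* reads lay in the overlap was not determined.

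*Loxl4* (gene 67573, chr19:42592279-42612806, minus strand), another lysyl oxidase gene, had the largest fold change of the 10. Its level was 104.4, 125.1 and 100.7 CPM in CD34hi and 30.4, 65.2 and 29.3 CPM in CD34lo libraries of pools 1, 2 and 3. The populations did not overlap, and pool 2 had the highest library of each population. The means of 110 ± 13.2 CPM and 41.7 ± 20.4 CPM (SD, n = 3 each) gave a log2 fold change of 1.40 (SE 0.29, edgeR adjusted p = 0.00570), with 1.78, 0.94 and 1.78 in the pools. The 250 bases upstream of *Loxl4* (chr19:42612807-42613056, minus strand, RefSeq, GRCm38.p6) are shown as those of the gene with the largest difference, written as above.
Loxl4: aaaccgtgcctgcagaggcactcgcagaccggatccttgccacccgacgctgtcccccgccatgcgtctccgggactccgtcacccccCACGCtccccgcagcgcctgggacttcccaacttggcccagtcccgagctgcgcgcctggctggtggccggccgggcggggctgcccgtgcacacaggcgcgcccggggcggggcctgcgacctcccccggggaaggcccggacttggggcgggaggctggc
This window held 1 place with the core letters, 162 bases before the start.

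*Loxl1* and *Lox* made up different parts of the summed level of the lysyl oxidase family. By RPKM, *Loxl1* took 65.7%, 63.2% and 61.3% of the summed family level in CD34hi and 51.1%, 40.9% and 47.8% in CD34lo libraries of pools 1, 2 and 3, and *Lox* took 8.26%, 11.5% and 15.8% against 22.8%, 32.5% and 28.0%. Neither share overlapped between the populations, and the RPKM ratio of *Loxl1* to *Lox* was 5.77 ± 2.05 in CD34hi and 1.73 ± 0.491 in CD34lo (SD, n = 3 each). The share of *Loxl2* was 18.1% ± 1.70 in CD34hi and 19.5% ± 0.707 in CD34lo and overlapped (exact two-sided permutation p = 0.2). The shares of *Loxl3* (3.65% in CD34hi and 4.44% in CD34lo) and *Loxl4* (3.01% and 1.76%) were small in both populations. Apart from *Loxl2*, each share of the family had an exact two-sided permutation p of 0.1, the smallest possible. The summed family level was 672 ± 37.1 RPKM in CD34hi and 433 ± 19.8 RPKM in CD34lo (SD, n = 3 each), without overlap (exact two-sided permutation p = 0.1).

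**Figure D3:**
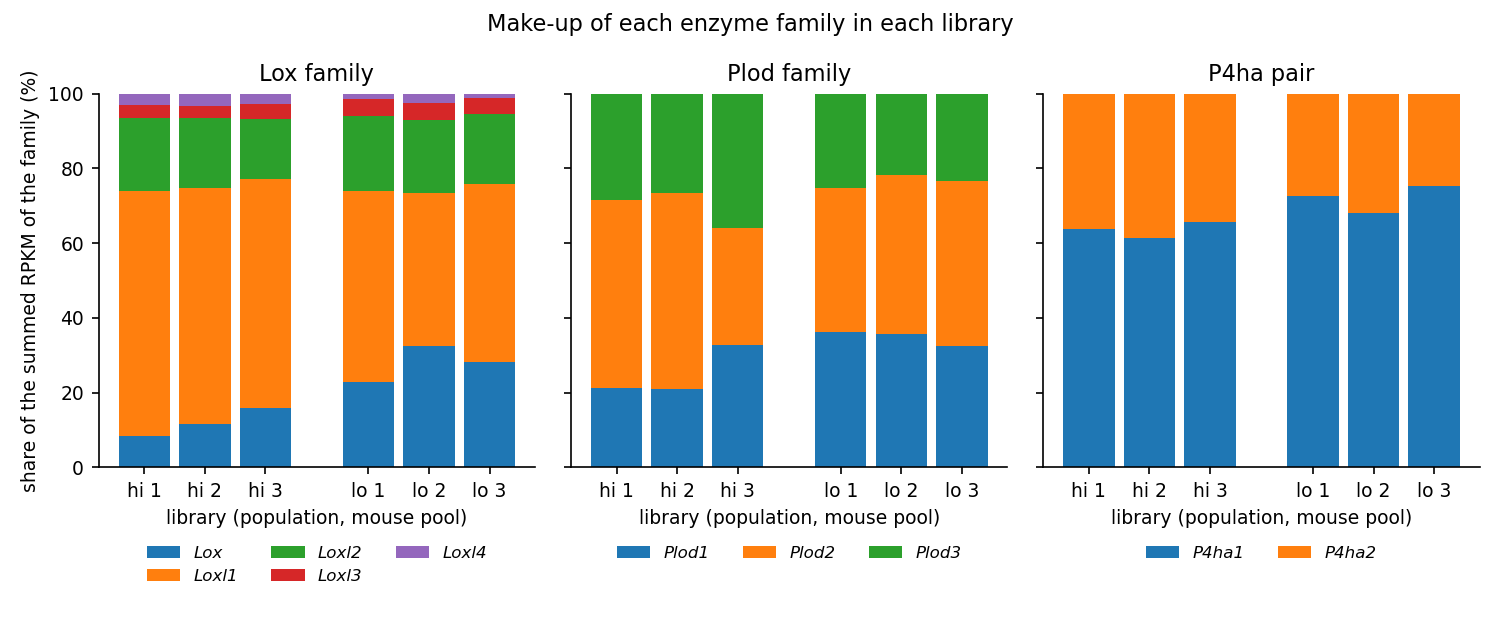
Share (%) of each gene in the summed RPKM of its enzyme family, for the lysyl oxidases, the lysyl hydroxylases and the *P4ha* pair, in each library (hi, CD34hi; lo, CD34lo; number, mouse pool). *Lox* takes 8.26% to 15.8% in CD34hi and 22.8% to 32.5% in CD34lo libraries, and *Plod2* drops to 31.3% in the CD34hi library of pool 3.

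Ranked by mean RPKM, CD34hi fibroblasts expressed *Loxl1* (426), *Loxl2* (121), *Lox* (80.2), *Plod2* (49.4), *P4ha1* (48.0), *Plod3* (32.5), *P4ha2* (27.6), *Plod1* (26.4), *Loxl3* (24.5) and *Loxl4* (20.2). In this order, the libraries of *Lox* and *Plod2*, of *Plod2* and *P4ha1*, and of *P4ha2* and *Plod1* overlapped, with the higher-ranked gene above the other in 2 of 3 libraries, so these neighbours did not differ beyond their spread. The ranges of *Plod1* and *Loxl3* and of *Loxl3* and *Loxl4* overlapped across libraries, but the order was the same within each of the 3 libraries. CD34lo fibroblasts expressed *Loxl1* (201 RPKM), *Lox* (121), *Loxl2* (84.1), *Plod2* (70.3), *P4ha1* (63.3), *Plod1* (58.5), *Plod3* (39.8), *P4ha2* (24.8), *Loxl3* (19.2) and *Loxl4* (7.66), and no neighbours overlapped. *Lox* and *Plod1* thus stood higher in the CD34lo order, while *Loxl1* was first and *Loxl4* last in both.

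Other genes of collagen biosynthesis, together with 10 hypoxia response genes, were examined in 6 lists with 48 genes, all of which were tested. The calls lay on the CD34hi side for 8 of them and on the CD34lo side for 18, and 22 had no call. Among all 15219 tested genes, 16.9% were called on the CD34hi side and 18.7% on the CD34lo side. Whether the counts of the 48 genes or of any single list differ from these shares was not tested. The median over the 48 log2 fold changes was −0.35, against −0.0064 for all tested genes. Without pool 1 or pool 2, 15 and 16 of the 48 were called. Among 8 other genes of prolyl hydroxylation, 4 were higher in CD34lo and 0 in CD34hi (median −0.38). These were *P3h2* (log2 fold change −2.60, edgeR adjusted p = 0.000986), *P3h1* (−0.70, 0.00547) and *P3h3* (−0.43, 0.0135), which encode prolyl 3-hydroxylases, and *Crtap* (−0.55, 0.0120), which encodes the partner of P3h1. *P3h2* was scarce, with 0.201 to 0.419 CPM in CD34hi and 1.41 to 2.23 CPM in CD34lo. *P4hb*, encoding the shared β subunit of prolyl 4-hydroxylase, had a log2 fold change of −0.32 and was not called (edgeR adjusted p = 0.0722).

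Among 8 genes of collagen glycosylation, folding and export, 2 were called in each direction (median −0.18). *Colgalt2*, a collagen galactosyltransferase gene, was higher in CD34hi (29.2, 35.8 and 28.8 CPM against 7.0, 16.1 and 12.9 CPM, log2 fold change 1.39, edgeR adjusted p = 0.00401), as was *Mia3* (0.43, 0.0352), which encodes the procollagen export receptor TANGO1. The genes of the collagen chaperone *Serpinh1* (−0.58, edgeR adjusted p = 0.0121) and of the prolyl isomerase *Fkbp10* (−0.64, 0.00424), a partner of lysyl hydroxylase 2, were higher in CD34lo.

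Of 8 procollagen processing genes, 3 were higher in CD34hi and 2 in CD34lo (median 0.08). *Pcolce2*, encoding an enhancer of C-propeptide cleavage, had 817.9, 828.8 and 861.4 CPM in CD34hi and 138.5, 262.8 and 168.5 CPM in CD34lo libraries (log2 fold change 2.14, edgeR adjusted p = 0.000153). The C-proteinase genes *Bmp1* (1.02, edgeR adjusted p = 0.000474) and *Tll1* (1.62, 0.00328) were also higher in CD34hi. The N-proteinase gene *Adamts3* (−2.69, edgeR adjusted p = 4.11e-05) and *Pcolce* (−0.65, 0.0193), encoding another enhancer, were higher in CD34lo. *Adamts3* was scarce, with 1.82 to 2.69 CPM in CD34hi and 12.1 to 18.7 CPM in CD34lo. The N-proteinase genes *Adamts2* (0.53, edgeR adjusted p = 0.0769) and *Adamts14* (−0.37, 0.101) were not called. *Adamts2* had means of 651 CPM in CD34hi and 450 CPM in CD34lo. With the mouse pool as a block, *Adamts2* was called higher in CD34hi (0.54, edgeR adjusted p = 0.0291).

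The 6 partners and copper supply genes of the lysyl oxidases also split. *Fbln5*, which tethers Loxl1 to elastic fibres, had 324.3, 311.9 and 464.3 CPM in CD34hi and 109.3, 150.3 and 160.5 CPM in CD34lo libraries (log2 fold change 1.39, edgeR adjusted p = 0.000905). *Fn1*, encoding fibronectin, was likewise higher in CD34hi (1.29, edgeR adjusted p = 0.00104). *Postn* (−2.59, edgeR adjusted p = 3.76e-05) and *Fmod* (−5.19, 1.57e-05), which encode the matrix proteins periostin and fibromodulin, were higher in CD34lo, *Fmod* with 0.441 to 1.41 CPM in CD34hi and 30.2 to 43.9 CPM in CD34lo. *Efemp2* (0.19) and the copper transporter gene *Atp7a* (−0.09) were not called, and the median of the list was 0.05.

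Of 8 substrate genes, 5 were higher in CD34lo and 0 in CD34hi (median −0.78). The basement membrane collagens *Col4a2* (log2 fold change −2.43, edgeR adjusted p = 1.82e-05) and *Col4a1* (−2.04, 9.30e-05) differed most, followed by the fibrillar collagens *Col5a2* (−0.91, 0.00541), *Col1a1* (−0.87, 0.00808) and *Col1a2* (−0.69, 0.0201). *Col3a1* (−0.44), *Col5a1* (−0.04) and the elastin gene *Eln* (0.20, 95% confidence interval −0.43 to 0.83) were not called. The substrates called thus lay on the CD34lo side, as did *Plod1* and *P4ha1*, and the 4 called lysyl oxidase genes lay on the CD34hi side, but with the mouse pool as a block *Lox* was called on the CD34lo side.

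Of 10 hypoxia response genes, 3 were higher in CD34lo, 1 in CD34hi and 6 were not called (median −0.31). *Ldha*, encoding lactate dehydrogenase A, had 235.4, 212.6 and 142.6 CPM in CD34hi and 506.0, 465.1 and 283.5 CPM in CD34lo libraries (log2 fold change −1.09, edgeR adjusted p = 0.00975). *Car9* (edgeR adjusted p = 0.0251) was called at the edge of detection, with 3 to 6 counts per CD34hi and 7 to 20 counts per CD34lo library. *Egln3* (−0.97, edgeR adjusted p = 0.0473) had at most 1.29 CPM and was not called with the mouse pool as a block (edgeR adjusted p = 0.0694). *Adm*, encoding adrenomedullin, was higher in CD34hi (0.97, edgeR adjusted p = 0.0169).

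**Figure D4:**
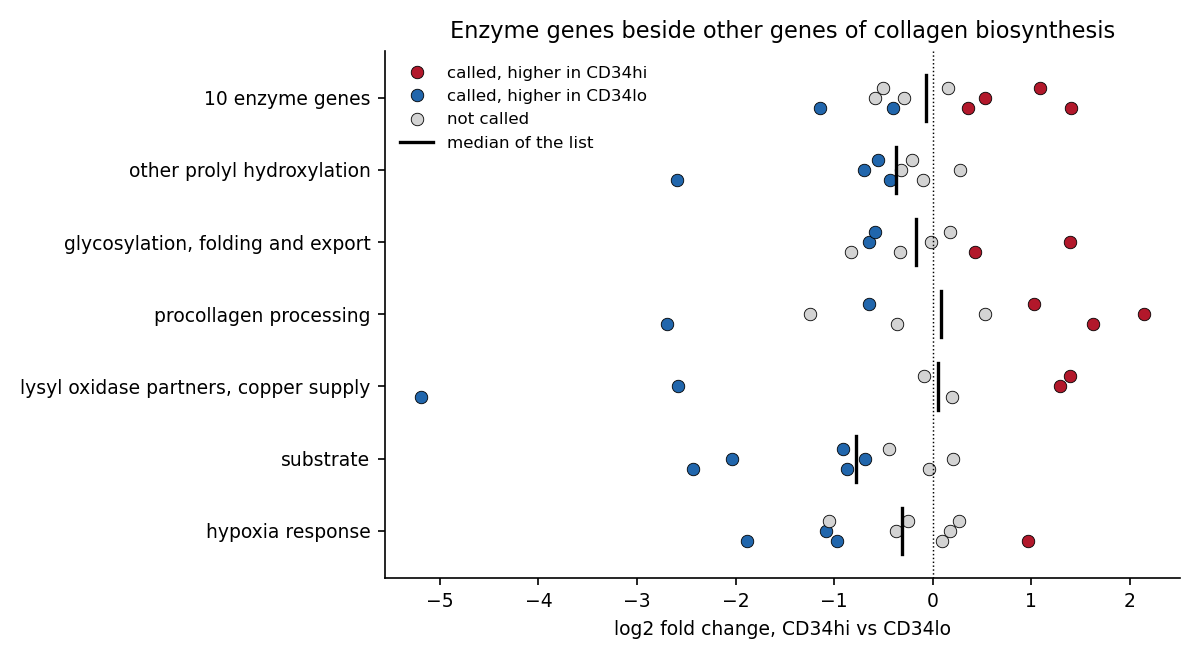
Log2 fold change, CD34hi vs CD34lo, of the 10 enzyme genes and of the genes in 6 lists of collagen biosynthesis and hypoxia response, 1 point per gene, with the call as color and the median of each list as a bar. No gene of the substrate list and of the other prolyl hydroxylation list was called higher in CD34hi, and their medians lie at −0.78 and −0.38.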

How the data were processed

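Bulk RNA-seq of sorted CD34hi and CD34lo mammary fibroblasts (3 libraries each) was analysed from the deposited counts. Per the labels and methods, the authors prepared TruSeq RNA v2 libraries for NextSeq sequencing, aligned reads to GRCm38/mm10 and obtained whole-number counts per gene with Rsubread 2.2.6, without normalization. The annotation, strand setting and handling of multi-mapping reads are not given in the sources used here. Depth was 28764779 to 52402410 counts per library.

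Symbols came from a RefSeq gene table of the same build (25275 of 27179 genes matched). In R 4.3.3, edgeR 4.0.16 kept 15219 genes (filterByExpr), applied TMM, and tested CD34hi vs CD34lo by quasi-likelihood (glmQLFit, glmQLFTest) with Benjamini-Hochberg adjustment over all genes and a threshold of 0.05. The study used voom, which was run as an alternative (limma 3.58.1), as were DESeq2 1.42.0, other scalings and filters, thinning, and leaving out pools or libraries. The common biological coefficient of variation was 19.7%. RPKM used the gene lengths of the deposited table. In counts drawn for this comparison (15037 genes), edgeR recovered 66 of 100 genes changed 2-fold and 100 of 100 changed 4-fold, with 6 false calls. No other gene was changed in the drawn counts, all genes had the same dispersion, and the mouse pools had no effect. In the data, 5411 of 15219 genes were called, so the recovered numbers do not measure the power of this comparison.

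Same-numbered libraries came from the same mouse pool, and the deviations of such pairs from their population means correlated across genes (r = 0.279, 0.0844 and 0.243 in pools 1, 2 and 3). The pool was a block in an alternative. The enzyme genes and the lists were chosen with earlier results of these data known. All 10 enzyme genes were named, and of each list up to 3 called genes with the largest change and those against its majority, while other list genes were named after their values were seen. Permutation tests were exact and two-sided over libraries.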

Additional observations from a re-analysis of the deposited data

How the results depend on the processing

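Over 18 alternatives, the 10 enzyme genes gave 180 values, of which 156 kept direction and call, 18 lost the call, 6 gained it and 0 changed direction. The mouse pool as a replicate block called *Lox* in edgeR (−0.63, adjusted p = 0.0102) and in limma-voom (−0.63, 0.00521), and *Plod2* in limma-voom (−0.59, 0.0447), so that 7 and 8 enzyme genes were called; the block in edgeR changed no other call among the 10. Upper-quartile scaling moved the median of all genes to −0.06, lost the call of *Loxl3* (0.30, edgeR adjusted p = 0.0745) and gained that of *Plod3* (−0.35, 0.0451). With a pool or library left out, log2 fold changes ranged from −0.85 to −0.33 for *Lox*, 0.48 to 0.60 for *Loxl2*, 0.25 to 0.44 for *Loxl3*, −0.41 to −0.37 for *P4ha1*, −0.38 to −0.19 for *Plod3*, −0.75 to −0.17 for *Plod2*, 0.05 to 0.29 for *P4ha2*, 0.99 to 1.16 for *Loxl1*, 1.21 to 1.88 for *Loxl4* and −1.28 to −1.01 for *Plod1*. In the same fits, 3 to 6 enzyme genes, 15 to 26 pathway genes and 3468 to 5236 of all genes were called. The differences in family share ranged from −1.09 to −0.63 percentage points for *Loxl3*, −14.8 to −7.27 for *Plod1*, 3.91 to 8.65 for *Plod3* and −1.35 to 10.9 for *Plod2*, which turned to −1.35 without pool 1, −0.48 without pool 2 and −0.85 without the CD34hi library of pool 2. Fits without a pool or library have fewer samples, and the cause of the other changes was not tested. With 3 libraries against 3, no share can reach an exact permutation p under 0.1.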

Other observations

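The amount of enzyme mRNA relative to the mRNAs of fibrillar collagen substrates was computed after the other values had been seen. Per 1000 RPKM of *Col1a1*, *Col1a2* and *Col3a1* together, the lysyl oxidase family had 64.8, 75.2 and 53.8 RPKM in the CD34hi libraries of pools 1, 2 and 3 and 26.3, 26.2 and 29.0 RPKM in the CD34lo libraries. The means of 64.6 ± 10.7 and 27.2 ± 1.58 (SD, n = 3 each) differ by 2.38-fold, without overlap between the populations (exact two-sided permutation p = 0.1, the smallest possible). This ratio joins differences given above, the higher family sum in CD34hi and the higher *Col1a1* and *Col1a2* levels in CD34lo. *Col3a1*, the largest part of the divisor, was not called (log2 fold change −0.44, edgeR adjusted p = 0.130). *Loxl1* alone made up a mean of 63.4% of the family sum in CD34hi and 46.6% in CD34lo, and *Lox* was not higher in CD34hi (−0.59). The ratio was not computed for single genes of the family. Elastin, also a lysyl oxidase substrate, was not part of the divisor, and *Eln* was not called (log2 fold change 0.20). The lysyl hydroxylases had 10.5 ± 2.78 RPKM per 1000 RPKM of substrate in CD34hi and 10.6 ± 1.13 in CD34lo, and the *P4ha* pair had 7.30 ± 1.43 and 5.53 ± 0.142, and both overlapped between the populations (exact two-sided permutation p = 1 and 0.2). In both, the CD34hi library of pool 3 was the lowest of the CD34hi libraries, with 7.48 for the lysyl hydroxylases and 5.65 for the *P4ha* pair.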
